A study of Mus musculus with 4 samples.

Results

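The genes described here are the integrin subunits and laminin chains of 4TO7 cells, a mouse mammary carcinoma line, recovered from tumors grown in Balb/c mice. Members were taken by symbol: protein-coding genes whose symbol starts with Itga or Itgb, and laminin genes of the Lama, Lamb and Lamc series. Genes for integrin-binding or integrin-like proteins were left out, among them Itgb3bp, which encodes a centromere protein. The 37 genes described are 27 integrin subunits and 10 laminin chains, of 55385 genes listed. Bulk RNA was sequenced from 2 libraries of tumors resistant to immunotherapy (resistant replicates 1 and 2) and 2 of control tumors (control replicates 1 and 2). All 4 carry the same treatment label, untreated, while their treatment protocol names anti-PD-L1 in vivo, so what the control tumors received cannot be told from the labels. No age, sex or animal number is given, and the libraries of a group are called biological replicates without naming separate animals. P-values therefore measure the spread between these libraries, which may in part be technical.

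Integrins are heterodimers of an α and a β subunit that tie the cytoskeleton to the extracellular matrix or to other cells. The β subunit sets which α subunits can join: β1 takes many, αv takes several β partners, and the leukocyte subunits β2 and β7 have α partners of their own. Laminins are trimers of an α, a β and a γ chain that form a sheet in the basement membrane, the layer under epithelia, where α3β1, α6β1 and α6β4 integrins bind them. In mammary epithelium these contacts are known to govern polarity and survival. A surface integrin or a secreted laminin needs all of its chains, so transcripts of 1 subunit do not give the amount of the complex.

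The libraries held between 45666470 and 49592054 counted reads, and levels are given as normalized counts, the reads of a gene divided by the authors' size factor for the library. Of 5 carcinoma identity markers all were tested, 1 rose and 1 fell, beside 5.32% and 4.73% of all tested genes. Krt8 had 12649 to 21116 normalized counts, Krt18 had 27813 to 42630 and the mesenchymal filament gene Vim had 124788 to 155221, with overlapping groups. The epithelial keratin gene Krt19 rose from 44.7 ± 4.72 in control to 361 ± 89.9 in resistant cells (SD, n = 2), a log2 fold change, resistant minus control, of 2.97 ± 0.25 (SE, limma's adjusted p = 0.000812). Epcam, an epithelial adhesion molecule, fell from 294 ± 67.1 to 101 ± 18.4 (-1.53 ± 0.25, adjusted p = 0.0110). The myoepithelial keratins Krt5 and Krt14 had no read in any library. The 4 myoepithelial markers summed to 16.1 to 25.5 normalized counts in resistant and 34.3 to 63.4 in control libraries. Trp63, the 1 tested marker of that list, was lower in both resistant libraries but not called (log2 fold change -1.49), and Oxtr had too few reads. Some markers of other cell types were at or near 0, for leukocytes (Ptprc at most 2.15, Cd3e at most 1.07, Nkg7 at 0), endothelium (Cdh5 at most 1.92, Kdr at most 1.01) and platelets (Pf4 at 0). The leukocyte list, led by S100a8, summed to 414 to 415 normalized counts in resistant and 436 to 814 in control libraries. In the same order the endothelial list, led by Pecam1, summed to 18.3 to 21.5 and 26.2 to 34.6. The platelet list, led by Ppbp, summed to 29.0 to 29.6 and 21.2 to 23.1. Each of these lists had 1 tested marker, which was not called. The fibroblast markers Lum and Dpt were at most 1.92 and 0, while Pdgfra had 5766 to 8504 and Col1a1 12.5 to 69.6, neither called. The remaining marker of that list of 5, the decorin gene Dcn, fell from 623 ± 198 to 153 ± 14.4 (-1.99 ± 0.24, adjusted p = 0.00343), and the list summed to 7137 to 8491 in resistant and 6319 to 9281 in control libraries. The part of these markers in the results below was not tested. Over 14238 genes the log2 difference between the 2 libraries of a group had a standard deviation of 0.45 in controls and 0.31 in resistant cells.

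Itga3 and Itgb1 led the integrins and Lama5 and Lamb1 the laminins in all 4 libraries, and 5 of the 24 members with enough reads to test differed between the groups. Itgb7, Itgb3 and Itga1 were higher in resistant cells, and Itgb8 and Itga10 were lower. A gene was tested if it averaged at least 10 normalized counts over the 4 libraries, and it was called if limma's Benjamini-Hochberg adjusted p over all 14238 tested genes was under 0.05. By that rule 5 of 17 tested integrins, or 29.4%, and 0 of 7 tested laminins were called in limma, against 10.1% of all tested genes (5.32% higher and 4.73% lower). With voom 0 laminins were called as well, and 3 had an unadjusted p under 0.05 in limma. Groups did not overlap for 17 of the 24 tested members, against 56.7% of all tested genes. The median log2 fold change was 0.08 for the tested integrins and -0.12 for the tested laminins, beside 0.00 for all tested genes. The other 13 members had too few reads: 10 integrins and 3 laminins, of which Itgb2l and Lama1 had none. With no read, at most 3 reads are allowed for, or 2.88 to 3.22 normalized counts depending on the library, for counting error only.

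**Figure D1:**
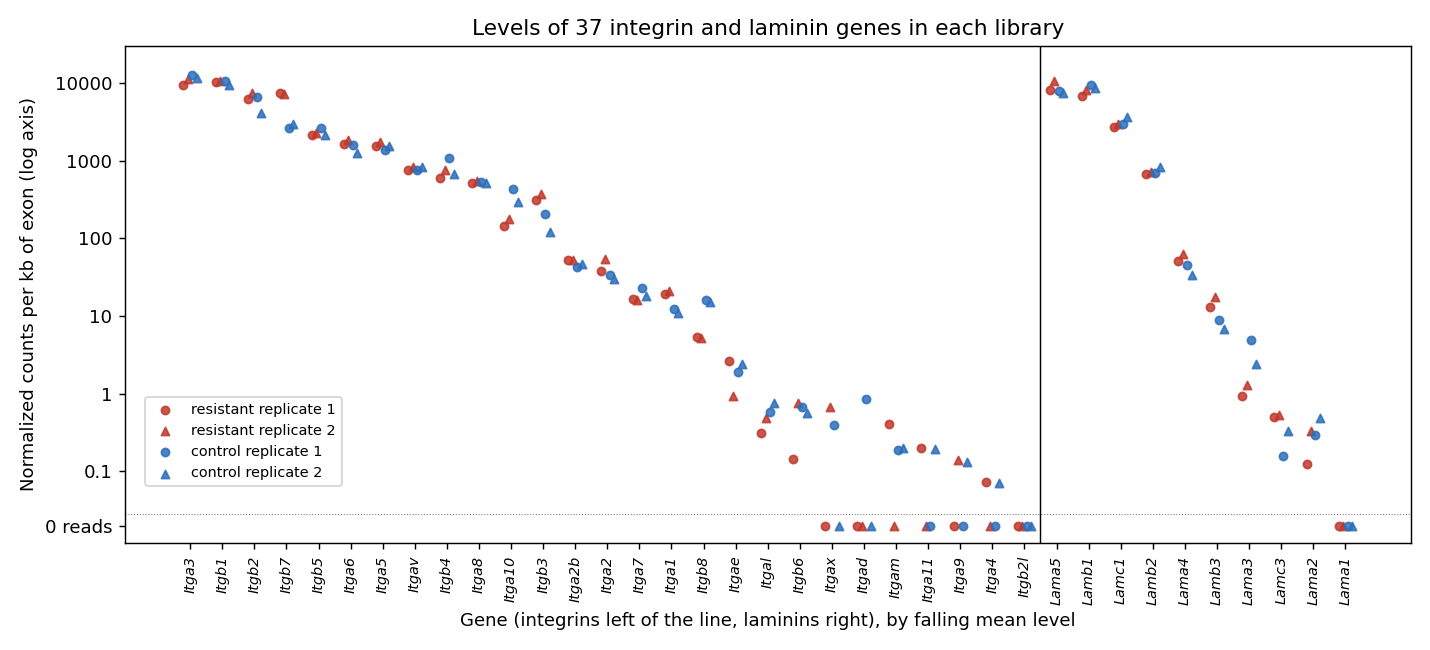
Levels of the 37 integrin and laminin genes in each library, in normalized counts per kb of exon on a log axis, with libraries that had no read drawn at the foot. Red is resistant and blue control, circles are replicate 1 and triangles replicate 2. Itga3 and Itgb1 lead the integrins and Lama5 and Lamb1 the laminins, while all 5 leukocyte α subunits lie below 3.

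Promoters are shown for those called members whose upstream window holds few annotated exon bases (9 for Itgb7 and 0 for Itga1 and Itga10), to set genes that rose beside a gene that fell. Of the 37 members, 24 matched the RefSeq promoter table (GRCm38.p6) by symbol, and so did 4 of the 5 called members. Each run is the 250 bases before the RefSeq start site, 5′ to 3′ on the gene's own strand, with CpG dinucleotides in capitals. The windows are chr15:102231936-102232185 on the minus strand for Itgb7, chr13:115101965-115102214 on the minus strand for Itga1 and chr3:96645334-96645583 on the plus strand for Itga10.
Itgb7: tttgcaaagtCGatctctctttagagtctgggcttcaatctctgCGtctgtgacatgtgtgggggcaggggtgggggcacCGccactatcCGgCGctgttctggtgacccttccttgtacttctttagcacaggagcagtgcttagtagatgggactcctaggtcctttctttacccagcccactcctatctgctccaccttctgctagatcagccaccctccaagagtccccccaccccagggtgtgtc
Itga1: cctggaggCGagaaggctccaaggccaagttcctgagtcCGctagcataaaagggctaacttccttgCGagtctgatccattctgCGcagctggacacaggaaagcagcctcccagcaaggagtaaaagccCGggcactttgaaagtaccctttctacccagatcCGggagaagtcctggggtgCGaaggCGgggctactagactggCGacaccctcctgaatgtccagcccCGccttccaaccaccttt
Itga10: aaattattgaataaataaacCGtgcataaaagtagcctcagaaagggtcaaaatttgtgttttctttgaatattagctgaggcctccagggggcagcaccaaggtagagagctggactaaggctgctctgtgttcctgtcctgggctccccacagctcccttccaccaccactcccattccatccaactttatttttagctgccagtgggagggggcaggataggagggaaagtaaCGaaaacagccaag

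The windows held 5 CpG for Itgb7, 10 for Itga1 and 2 for Itga10, beside a median of 6 over 32851 RefSeq promoters (quartiles 2 and 16). Both strands were searched for 6 motifs. One match was found in these windows, a gamma-activated site (TTCNNNGAA, bound by STAT proteins) in Itga10, read as TTCTTTGAA from position -189 relative to the start. That motif occurs in 7.02% of promoter windows of this length. The interferon-stimulated response element, GAAA on either side of any 2 bases, occurs in 2.98% of them, the AP-1 site TGANTCA in 6.75%, the GC box GGGCGG in 32.7%, the Runx site TGTGGT in 14.0% and the TATA box TATAAA in 12.4%. These are matches of letters, and no binding was measured.

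Among the α subunits that bind laminin, Itga3 and Itga6 were abundant and the muscle-type Itga7 was low. Itga3 (ENSMUSG00000001507.16, chromosome 11, 95044474 to 95076801, GRCm38), whose product pairs with β1 and binds laminins that carry the α3 or α5 chain, had 53910 and 64488 normalized counts in resistant replicates 1 and 2 and 72452 and 65863 in control replicates 1 and 2. Each resistant library was under each control, by a margin smaller than the spread within the resistant pair. Its log2 fold change, resistant minus control, was -0.23 ± 0.14 (SE) and did not pass (adjusted p = 0.358, 95% interval -0.56 to 0.11). Itga6, which joins β1 or β4, stood at 12775 ± 2044 normalized counts in controls and 15622 ± 1308 in resistant cells (SD, n = 2), a log2 difference of 0.30 ± 0.14 that did not pass either (adjusted p = 0.223). Itga7 had 131 ± 2.66 in resistant and 167 ± 29.7 in control cells. In units of normalized counts per kb of exon, the scale used here to compare genes, Itga3 had a mean level of 11240 against 1573 for Itga6 and 18.4 for Itga7.

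The partner of most α subunits, Itgb1 (ENSMUSG00000025809.15), had 41485 and 43941 normalized counts in the resistant and 42879 and 38210 in the control libraries. The groups overlapped, and the log2 fold change of 0.08 ± 0.12 had a 95% interval of -0.21 to 0.36 (adjusted p = 0.740). Itgb4, which with α6 forms the integrin of hemidesmosomes, had 4165 and 5372 in resistant and 7647 and 4768 in control cells. Control replicate 1 was the highest and the groups overlapped (-0.35 ± 0.22, adjusted p = 0.362). Per kb, Itga3 and Itgb1 (10201) led the integrins and their ranges over the libraries overlapped, and Itga3 made up 69.7% of the summed α subunit level over the 4 libraries. That share was 67.3% ± 1.14 in resistant and 72.1% ± 0.662 in control cells (SD, n = 2).

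Of the α subunits that bind collagen, 1 fell and 1 rose. Itga10 (ENSMUSG00000090210.7, chromosome 3, 96645584 to 96664519), whose product joins β1 and is best known from cartilage, had 755 and 930 normalized counts in the resistant libraries and 2269 and 1532 in the controls. Every resistant value was under every control value, although the controls themselves were far apart. The log2 fold change was -1.15 ± 0.20 (adjusted p = 0.0145). Exons of Itga10 share 1739 of 5186 bases with Gm42957 on the same strand, where reads can be assigned to neither gene, so its level is uncertain. Itga1 (ENSMUSG00000042284.10, chromosome 13, 114953096 to 115101964), a receptor for basement membrane collagen, moved the other way, with 363 and 397 in resistant and 231 and 204 in control cells. All resistant values were above the controls, and the log2 fold change was 0.80 ± 0.18 (adjusted p = 0.0323). Its neighbour on chromosome 13, Itga2, had 273 and 388 against 238 and 217 and did not pass (0.52 ± 0.22, adjusted p = 0.181). The fourth receptor of this class, Itga11, had 2 reads in all.

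Summed per kb, Itga10 made up 89.1% ± 2.01 of the collagen-binding α level in control and 70.9% ± 0.863 in resistant cells (SD, n = 2). Itga1 had 2.91% ± 0.478 and 8.97% ± 0.860, and Itga2 had 7.97% ± 1.49 and 20.1% ± 1.79, in the same order. For these 3 genes the resistant and control shares did not overlap. Shares add up to a whole, so a fall of Itga10 raises the shares of Itga1 and Itga2, and Itga2 was not called by its own level. The uncertain level of Itga10 makes all these shares uncertain. Itga1 is also a gene of vascular smooth muscle, and 2 of 5 pericyte and muscle markers rose, beside 5.32% of all tested genes. In limma these were the desmin gene Des (2.08 ± 0.27, adjusted p = 0.00447) and Pdgfrb (1.00 ± 0.20, adjusted p = 0.0252). The others were not called, Acta2 at 1.33 ± 0.54, Rgs5 at -0.05 ± 0.26 and Myh11 at -0.88 ± 0.84. The 5 markers summed to 860 to 1088 normalized counts in resistant and 417 to 494 in control libraries, none was at 0, and their part in the Itga1 result was not tested. In bulk RNA, fewer cells of a type and less RNA per cell cannot be told apart.

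**Figure D2:**
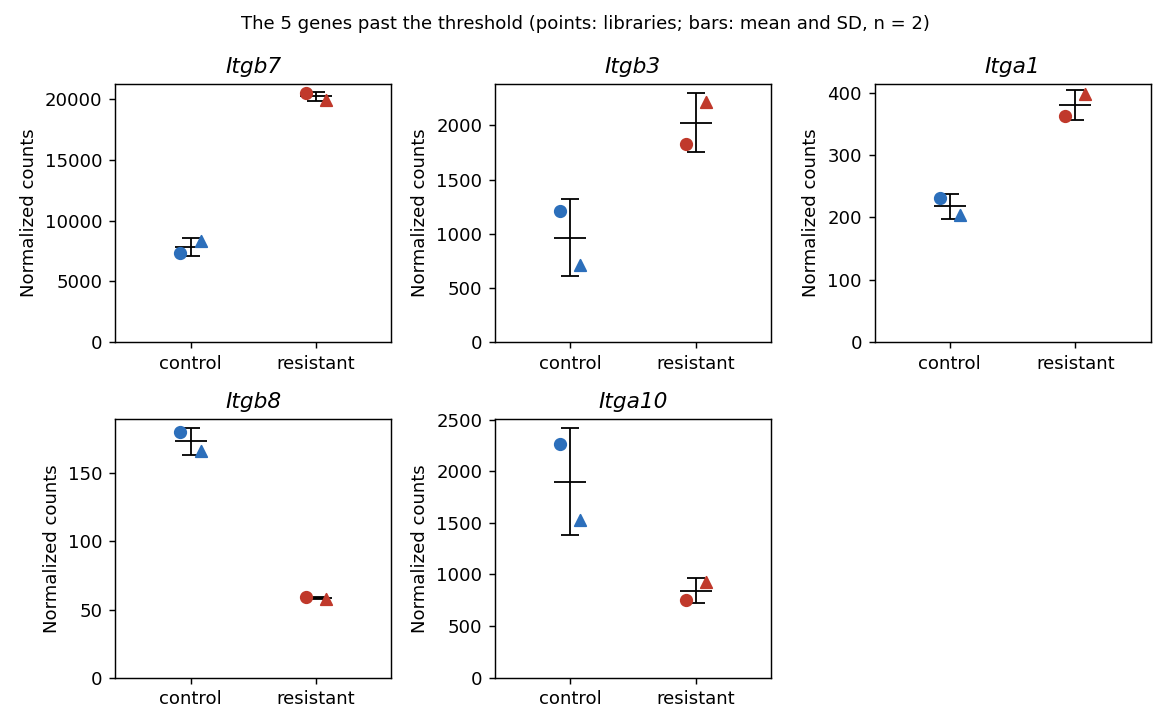
Normalized counts of the 5 called genes in each library, on linear axes from 0, with circles for replicate 1, triangles for replicate 2 and bars for the mean and SD (n = 2). Itgb7 has resistant libraries at 20459 and 19935 and controls at 7293 and 8334, a wide gap beside the spread, while the control libraries of Itga10 and Itgb3 lie far apart.

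The α subunits that recognise the RGD peptide of fibronectin and vitronectin were not called. Itgav (ENSMUSG00000027087.11), the partner of several β subunits, had the highest count of this class, 8195 and 8842 in resistant and 8272 and 8997 in control libraries. The groups overlapped, and the log2 fold change of -0.02 ± 0.11 had a 95% interval of -0.27 to 0.23 (adjusted p = 0.929). The fibronectin receptor subunit Itga5 had 7224 ± 643 normalized counts in controls and 8164 ± 602 in resistant cells (0.18 ± 0.12, adjusted p = 0.378). Itga8, which binds nephronectin, had 3935 ± 215 in resistant and 3843 ± 66.0 in control cells (0.03 ± 0.10, adjusted p = 0.877). Per kb the order was Itga5 at 1560, Itgav at 798 and Itga8 at 528, and their ranges did not overlap. The platelet subunit Itga2b had 290 ± 3.09 in resistant and 243 ± 17.4 in control cells (0.25 ± 0.18, adjusted p = 0.405).

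Of the β partners of Itgav other than Itgb1, which is described above and not counted here, 1 rose and 1 fell. Itgb3 (ENSMUSG00000020689.4, chromosome 11, 104608000 to 104670476), part of the vitronectin and osteopontin receptor αvβ3, had 1831 and 2220 normalized counts in resistant and 1213 and 711 in control cells. Both resistant libraries were above both controls, and the log2 fold change was 1.12 ± 0.24 (adjusted p = 0.0295). Itgb8 (ENSMUSG00000025321.14, chromosome 12, 119158022 to 119238802), which in αvβ8 binds and activates latent TGF-β, had 59.1 and 57.9 against 181 and 166. The libraries of each group lay close together and far from the other group, and the log2 fold change was -1.55 ± 0.23 (adjusted p = 0.00731). Itgb5, also a vitronectin receptor subunit, was the most abundant of these partners at 7707 and 8071 in resistant and 9459 and 7678 in control cells, with overlapping groups (-0.11 ± 0.13, adjusted p = 0.624). Itgb6, the epithelial subunit that also activates TGF-β, had 15 reads in all.

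Per kb, Itgb5 held 93.2% ± 1.27 of the level summed over Itgb3, Itgb5, Itgb6 and Itgb8 in control and 86.4% ± 1.20 in resistant cells. Itgb3 held 6.19% ± 1.33 and 13.3% ± 1.19, and Itgb8 held 0.611% ± 0.0629 and 0.206% ± 0.0125 (SD, n = 2). Megakaryocyte and platelet markers, which would come with αIIbβ3, stood at 29.0 to 29.6 normalized counts summed over 4 markers in resistant and 21.2 to 23.1 in control libraries. Nearly all of that was Ppbp, Pf4 was at 0, and endothelial markers summed to 18.3 to 21.5 and 26.2 to 34.6. The platelet adhesion protein gene Vwf, in neither marker list, was called higher (log2 fold change 2.45). The part of platelet or endothelial cells in the Itgb3 result was not tested.

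The clearest difference was in a subunit known from lymphocytes. Itgb7 (ENSMUSG00000001281.10, chromosome 15, 102215995 to 102231944), which joins α4 to form the gut-homing receptor or αE to bind E-cadherin, had 20459 and 19935 normalized counts in resistant and 7293 and 8334 in control cells. The resistant libraries nearly coincided, far above both controls. The log2 fold change was 1.37 ± 0.11 (adjusted p = 0.000708), a ratio of means of 2.58. Within 5 Mb on either side, 119 other tested genes had a median log2 fold change of 0.16, so Itgb7 stood 1.21 above that median. Of those neighbours 12 were called higher and 0 lower, beside 5.32% and 4.73% of all tested genes. For the other 4 called members the median of the neighbours lay between -0.16 and -0.04. Of 155 neighbours of Itgb3, 8 were higher and 8 lower, and of 112 of Itga10, 2 were higher and 5 lower. Itgb8 (11 neighbours) and Itga1 (35) had 0 called.

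Itgb2 (ENSMUSG00000000290.13), the CD18 subunit of leukocyte integrins, was as abundant and less clear in direction. It had 18861 and 22402 normalized counts in resistant and 20236 and 12707 in control cells. Control replicate 2 was low and the groups overlapped (0.36 ± 0.21, adjusted p = 0.328, 95% interval -0.13 to 0.85). Leaving out control replicate 1 gave a log2 fold change of 0.69, and leaving out control replicate 2 in its place gave 0.02. Each of these fits holds a single control library, so the spread between the controls is not in it.

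The α partners of these leukocyte subunits were all but missing. The partners of Itgb2 (Itgal, Itgam, Itgax and Itgad) summed to 27 reads over the 4 libraries, and those of Itgb7 (Itga4 and Itgae) to 38 reads, of which Itgae had 36. In normalized counts per kb, the Itgb2 partners together had 0.716 to 2.03 and the Itgb7 partners 0.937 to 2.74, against a mean of 6078 for Itgb2 and 5056 for Itgb7. Itgae averaged 9.06 normalized counts, just under the filter. Most exon bases of Itgam (3450 of 5024) lie also in Gm49368 on the same strand, so that reads there can be counted for neither gene, and the part of this in the low level of Itgam was not tested. Beside these values, most leukocyte markers were too low to test. Ptprc, the CD45 gene that all leukocytes express, had 0 and 2.15 normalized counts in resistant and 1.92 and 1.01 in control libraries. Of the 10 leukocyte markers 1 passed the filter, S100a8, at 393 to 394 in resistant and 421 to 800 in control libraries, and the list summed to 414 to 415 and 436 to 814.

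As a share of the summed β subunit level per kb, Itgb7 had 13.3% ± 3.06 in control and 26.3% ± 1.76 in resistant cells (SD, n = 2). Itgb1 had 46.1% ± 2.64 and 37.7% ± 0.305, Itgb2 had 24.6% ± 4.66 and 24.3% ± 1.77, and Itgb5 had 11.1% ± 0.0966 and 8.0% ± 0.129. The shares of Itgb7, Itgb1 and Itgb5 did not overlap between groups, and those of Itgb2 did. Shares add up to a whole, so a rise of any subunit lowers the shares of the others. The levels of Itgb1 (means of 10466 per kb in resistant and 9935 in control cells) and Itgb5 (2220 and 2412) overlapped between groups. Summed over all 9 β subunits the level was 27767 ± 1353 per kb in resistant and 21629 ± 2994 in control cells, and over all 18 α subunits it was 15382 ± 1684 and 16796 ± 978.

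**Figure D3:**
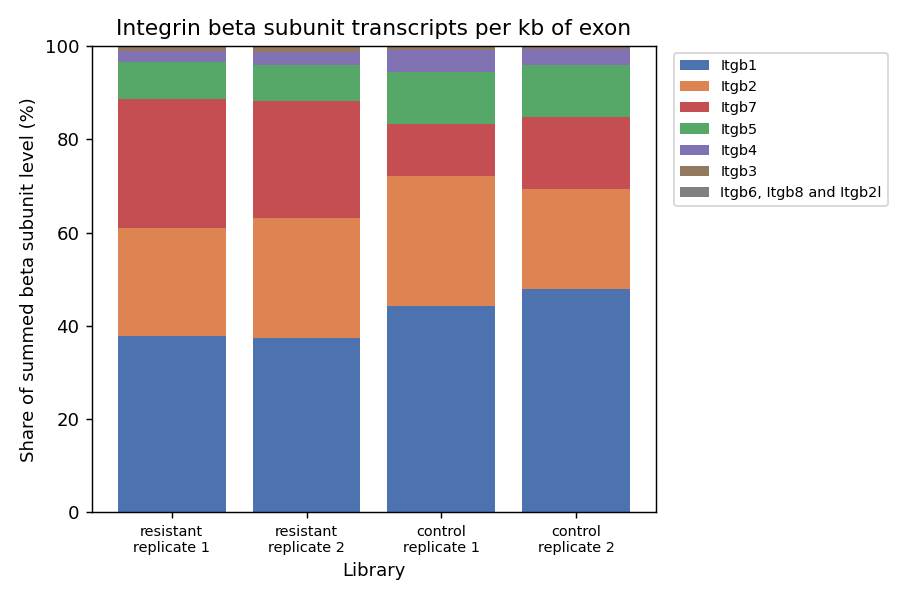
Share of each β subunit in the summed β level of a library, from normalized counts per kb of exon. Itgb7 takes 27.5% and 25.1% in the resistant libraries and 11.1% and 15.4% in the controls, Itgb1 remains the leading subunit in all 4, and Itgb2 takes 21.3% to 27.9%.

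The laminin chains of the trimer α5β1γ1, the common laminin of adult epithelial basement membranes, dominated. Lama5 (ENSMUSG00000015647.9, chromosome 2, 180176373 to 180225859) had 91981 and 121455 normalized counts in resistant and 88933 and 84559 in control cells. Resistant replicate 2 was the highest and the groups did not overlap, but the difference did not pass (0.29 ± 0.17, adjusted p = 0.328). It made up 99.4% ± 0.0368 of the α chain level per kb in resistant and 99.4% ± 0.108 in control cells. Lama4, the chain of vessel and muscle basement membranes, was far lower at 687 ± 91.4 in resistant and 476 ± 99.8 in control cells (0.54 ± 0.19, adjusted p = 0.125). Lama2, the muscle chain, had 20 reads in all.

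Lamb1 (ENSMUSG00000002900.16), the β chain of that trimer, had 68437 and 79688 normalized counts in resistant and 94587 and 86434 in control libraries. Its resistant values were both lower, yet the difference did not pass (-0.29 ± 0.14, adjusted p = 0.245). Lamb2, the β chain of neuromuscular and kidney laminins, had 4230 ± 248 in resistant and 4618 ± 508 in control cells with overlapping groups (-0.12 ± 0.12, adjusted p = 0.558). Lamb1 made up 91.3% ± 0.367 and 92.2% ± 1.22 of the β chain level per kb in resistant and control cells. Lamc1 (ENSMUSG00000026478.14), the γ chain of most laminins, had 22313 and 24290 in resistant and 24881 and 30054 in control libraries, again lower in both resistant ones without passing (-0.23 ± 0.13, adjusted p = 0.306). Per kb, Lama5 (8494) and Lamb1 (8298) had overlapping ranges, and Lamc1 (3069) lay below both.

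The chains known from the laminin that anchors epithelial cells at hemidesmosomes were scarce. Lama3, its α chain, had 10.2 and 13.9 normalized counts in resistant and 52.8 and 26.2 in control libraries, lower in both resistant ones but not called (-1.57 ± 0.44, adjusted p = 0.0701). Lamb3, its β chain, had 87.6 and 115 against 58.6 and 45.4, higher in both resistant ones but not called (0.95 ± 0.28, adjusted p = 0.0801). Per kb the mean levels were 11.6 for Lamb3 and 2.40 for Lama3, and their ranges did not overlap. Lamc3, another γ chain, had 9 reads in all.

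**Figure D4:**
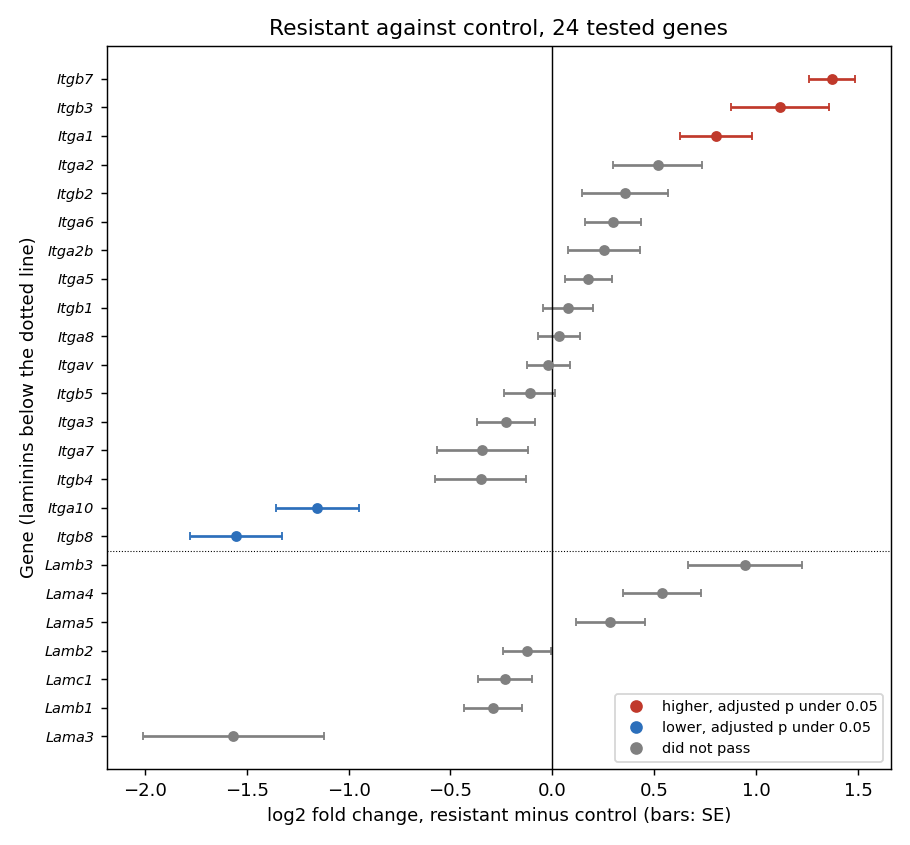
Log2 fold change, resistant minus control, of the 24 tested integrin and laminin genes with the SE of the limma fit, red and blue for genes past an adjusted p of 0.05. Itgb7, Itgb3 and Itga1 are to the right, Itgb8 and Itga10 to the left, and Lama3 has the lowest value but the widest error.

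Genes that work with integrins and laminins were taken from general knowledge in 4 lists, made with earlier results of these data known. Of 21 other integrin ligands, 14 were tested, 2 rose and 1 fell, with a median log2 fold change of 0.13. Icam1, the cell surface ligand of β2 integrins, fell from 328 ± 2.93 to 119 ± 30.2 normalized counts (-1.47 ± 0.23, adjusted p = 0.00918). The platelet adhesion protein gene Vwf, a ligand of αvβ3, rose from 34.1 ± 16.9 to 182 ± 41.3 (2.45 ± 0.38, adjusted p = 0.00895), and Npnt, the nephronectin that α8β1 binds, from 4792 ± 755 to 6941 ± 621 (0.54 ± 0.14, adjusted p = 0.0490). Of the ligands of β7 integrins, Vcam1 averaged 19101 and the E-cadherin gene Cdh1 averaged 2226 normalized counts, while Madcam1 had 21 reads in all. The αv ligands Spp1 and Fn1 were the most abundant, at means of 877601 and 548865, and neither was called (0.23 ± 0.28, adjusted p = 0.656, and 0.37 ± 0.21, adjusted p = 0.312).

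Of 17 basement membrane partners, 12 were tested, 1 rose and 1 fell, with a median of -0.19. Nid1, the nidogen that links laminin γ1 to collagen IV, rose from 179 ± 5.45 to 386 ± 46.5 normalized counts (1.10 ± 0.18, adjusted p = 0.0121). Col4a1, a chain of the main collagen IV network, fell from 34411 ± 3471 to 24407 ± 1745 (-0.49 ± 0.13, adjusted p = 0.0496). The heparan sulfate proteoglycan genes Agrn and Hspg2 averaged 38451 and 28943 and were not called.

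Of 32 intracellular adhesion proteins, 31 were tested, 3 rose and 1 fell, with a median of 0.05. The focal adhesion kinase gene Ptk2 rose from 7402 ± 431 to 11497 ± 333 normalized counts (0.64 ± 0.10, adjusted p = 0.0113), and the vinculin gene Vcl from 13620 ± 161 to 18865 ± 1575 (0.47 ± 0.11, adjusted p = 0.0391). Lims2, or PINCH-2, an adaptor of integrin-linked kinase, rose from 157 ± 23.5 to 679 ± 68.2 (2.11 ± 0.19, adjusted p = 0.000953). Tns1, a tensin that joins β subunit tails to actin, fell from 4955 ± 1735 to 1521 ± 280 (-1.67 ± 0.24, adjusted p = 0.00655). The activators of integrins talin 1 (Tln1) and kindlin 2 (Fermt2) averaged 24219 and 5567 and were not called.

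Of 15 membrane partners and hemidesmosome genes, all were tested, 2 rose and 0 fell in limma, with a median of 0.04. With all 4 libraries none was lower at an unadjusted p under 0.05 either, in limma or with voom. That did not hold in the fit that left out control replicate 2. Those that rose were the matrix co-receptor gene Sdc1, or syndecan 1, which rose from 7087 ± 211 to 13692 ± 1665 (0.94 ± 0.12, adjusted p = 0.00386), and Bsg, or basigin, from 25776 ± 709 to 35351 ± 46.6 (0.46 ± 0.11, adjusted p = 0.0407). The tetraspanin Cd151, which binds α3β1 and α6β4, averaged 13838 and the hemidesmosome linkers Plec and Dst averaged 6590 and 17183, none of them called. The shares called in the 4 lists, 21.4%, 16.7%, 12.9% and 13.3% in the order given, stand beside 10.1% of all tested genes. Since the lists were made with earlier results known, these shares are no test of whether such genes are called more often.

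Of the called members, Itgb7 kept its call when any 1 library was left out, with log2 fold changes of 1.28 to 1.47. Itgb8 and Itga1 lost theirs without either resistant library, Itga10 without resistant replicate 1 and Itgb3 without resistant replicate 2. Their log2 fold changes in the fits that left out 1 library were -1.61 to -1.49 for Itgb8, 0.71 to 0.89 for Itga1, -1.44 to -0.87 for Itga10 and 0.73 to 1.502 for Itgb3. In such a fit the spread comes from the intact pair alone, and the lone library is assumed to vary like it. Without control replicate 1, 8 integrins and 3 laminins passed, among them Itgb2, Itga2, Itga6 and the laminins Lama4, Lamb3 and Lamc1. Without control replicate 2, 6 integrins and 2 laminins passed, among them Itgb4, Lama3 and Lamb3. Among the partner genes, Lims2, Sdc1, Vwf and Tns1 kept their calls without any 1 library, Icam1 lost its call without resistant replicate 1, and Npnt, Nid1, Col4a1, Ptk2, Vcl and Bsg lost theirs without either resistant library.

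**Figure D5:**
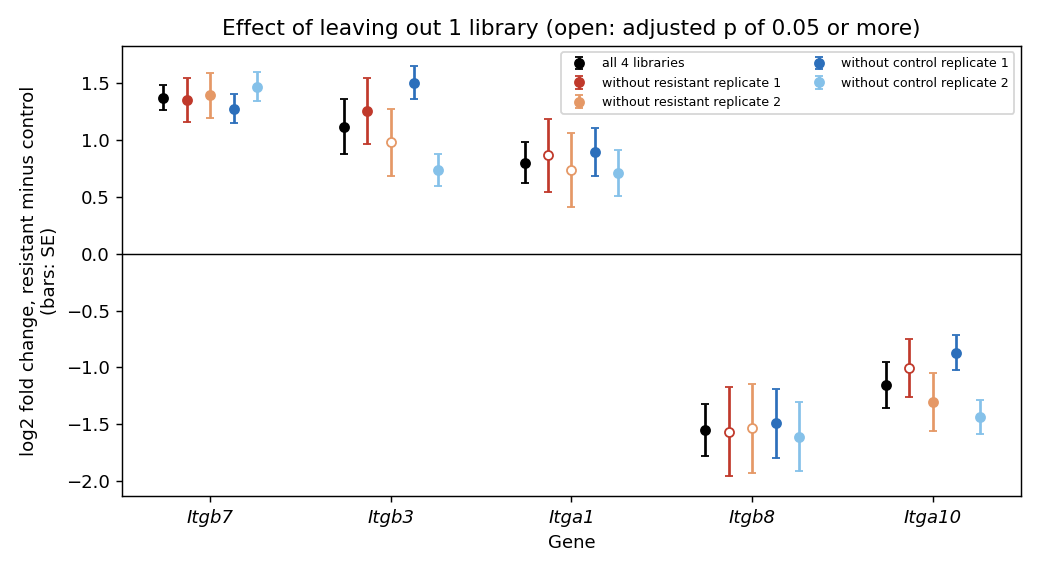
Log2 fold change (resistant minus control, bars SE) of the 5 called genes with all 4 libraries and with each library left out, open symbols marking an adjusted p of 0.05 or more. All points of a gene stay on 1 side of 0, and Itgb7 alone among the 5 has only filled symbols.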

How the data were processed

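Total RNA of 4TO7 tumor cells was sequenced in 4 libraries, after digestion of the tumors with hyaluronidase, collagenase, dispase and DNase per the labels' protocols. The authors deposited log2 values, made with STAR, DESeq2 and mm10 per the submitters' processing notes. Versions, the annotation, and whether counting used strand are not given in the sources used here. The scale was found from the values: 2 to the value, minus 1, was a whole multiple of 1 step per library for 100% of values (tolerance 0.01 reads), so the deposited log2 values hold a pseudocount of 1 and reads could be recovered. Symbols were joined by Ensembl identifier without its version for 55144 of 55385 genes, and positions and exon lengths are those of GENCODE M21 on GRCm38.

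Two-sided tests on the deposited log2 values used limma 3.58.1 under R 4.3.3 (lmFit, then eBayes with a trend, and no block). The 14238 genes averaging 10 or more normalized counts over the libraries were tested. Fold changes on this scale understate the change of low genes. Intervals are 95% limits of that fit. The fit was tested on simulated reads with the same spread in both groups. The real groups differed in spread, so that test does not show how the fit fares with unequal spread. One gene that meets the symbol rule is not reported here. Members and gene lists were chosen with earlier results of these data known. Full values are given for every called member and for the member with the highest mean in each role class, and for up to 4 called genes per partner list with the smallest p; other genes named from the lists were chosen after their values were seen. The alternatives were other pseudocounts (0.5 and 5), filters, scalings and moderation, limma voom on the recovered reads, a replicate block, and leaving out each library. Replicate numbers are not said to pair libraries.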

Additional observations from a re-analysis of the deposited data

How the results depend on the processing

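With no filter on low values 311 genes were called in place of 1432, 2 of them integrins (Itgb7 and Itgb8) and 0 laminins (3 at an unadjusted p under 0.05). Without a trend in the moderation the numbers were 623, again 2 integrins (Itgb7 and Itgb8) and 0 laminins (2 at an unadjusted p under 0.05). Leaving out 1 library gave 414 to 4067 genes, 2 to 8 integrins and 0 to 3 laminins, where the 0 without resistant replicate 1 or 2 stand beside 3 and 1 laminins at an unadjusted p under 0.05. The cause of these shifts was not tested. The number of genes called fell without either resistant library and rose without either control library. Each of those fits has fewer samples and takes its spread from the intact pair alone. A replicate block gave 1213 genes, 4 integrins and 1 laminin: Itga1 (adjusted p = 0.0683) lost its call and Lama3 gained one (adjusted p = 0.0493). The numbers share no stated litter or day, and deviations of same-numbered libraries from their group means correlated at -0.36 across 14238 genes. Direction turned, among members, only for 4 near 0 that no alternative called. Itga8 was -0.0071 with total count scaling and -0.023 to 0.089 with 1 library left out (below 0 without resistant replicate 2). With 1 library left out, Itgav had -0.080 to 0.041 (above 0 without resistant replicate 1 or control replicate 2), Itgb1 had -0.0062 to 0.160 (below 0 without control replicate 2) and Itgb5 had -0.262 to 0.039 (above 0 without control replicate 1). With either pseudocount, either scaling, robust moderation, voom and the stricter filter, the 5 member calls stayed as they were. Among the partner genes, Npnt lost its call under 9 of 14 alternatives, Col4a1 and Bsg under 6 each, Vcl under 5, Ptk2 under 4, Nid1 under 3, and Vwf, Icam1 and Tns1 under 2 each. Lims2 and Sdc1 kept theirs under all 14. Members under 10 normalized counts are limited by depth, and no difference between groups was tested there.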
